A study of Mus musculus with 6 samples.

Results

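The genes described here code for the proteasome and for the proteins that build it. They were all symbols in the count tables that begin with Psma to Psmg and a digit, other than the immunoproteasome genes *Psmb8*, *Psmb9* and *Psmb10*, with *Pomp* added. The rule found 48 of the 23183 symbols. RNA was sequenced from 3 treated and 3 untreated tumours grown from the mouse line UV2237M, a fibrosarcoma, which is a cancer of connective tissue cells. All were of genotype WT per the labels. The treated tumours had received gold nanoclusters (GNC), which turn light into heat, on days 1 and 7 together with near-infrared (NIR) irradiation, and the untreated ones had received no treatment. The labels used here do not give the host strain, its age, the time of harvest or whether each tumour came from its own animal, so p-values measure the spread between these samples.

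The proteasome breaks down proteins that carry chains of ubiquitin. Its core particle is a barrel of stacked rings. The outer alpha rings gate the entrance, and the inner beta rings hold the catalytic sites. The regulatory particle caps the barrel. Its ATPases unfold a substrate and feed it inward, and its non-ATPase subunits bind ubiquitin and remove it. Other activators can cap the core in its place, and dedicated chaperones assemble both particles. Damaged proteins, as heat produces, are a known load on this system.

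The deposited values were counts, which summed to 5696774, 7287163 and 7915087 in treated 1, 2 and 3 and to 6564725, 4680295 and 8019294 in untreated 1, 2 and 3. Untreated 2 stood apart, with a mean distance of 1.22 to the other libraries in log2 CPM (counts scaled to the library's total), against 0.611 to 0.729 for the others, so the main results are also given without it. The 8 markers of fibroblasts and fibrosarcoma summed to 26895 to 34361 CPM in treated and 25994 to 37809 CPM in untreated tumours, and none of them was at 0 in all libraries. Markers of other cells differed between libraries. Those of macrophages summed to 631 to 1256 CPM in treated and 1133 to 2447 CPM in untreated tumours, of neutrophils to 39.6 to 90.8 and 16.3 to 48.7 CPM, and of endothelial cells to 113 to 179 and 80.8 to 145 CPM. Those of keratinocytes summed to 4.08 to 60.4 CPM in treated and 6.01 to 1148 CPM in untreated tumours, and those of skeletal muscle to 3.26 to 404 and 17.5 to 91.4 CPM. The groups overlapped in both. Those of T and NK cells reached 3.48 CPM in treated and 6.81 CPM in untreated tumours, and 1 of the 6 was at 0 in all libraries. The part of these cells in the values below was not tested, and in bulk tissue fewer cells of a type and less RNA per cell cannot be told apart.

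Without untreated 2, every core and regulatory particle gene had a higher mean level in treated tumours by a small margin, and with it about as many lay lower as higher. Over the 5 libraries the log2 fold change was above 0 in 31 of 31 core and regulatory subunits, against 50.1% of all genes. The median was 0.29 and the range 0.01 to 0.49. Over all 6 libraries the log2 fold change was above 0 in 16, against 49.9% of all genes, and below 0 in 15, with a median of 0.02. The activators and inhibitors were mixed. *Psme3* was higher in treated tumours with and without untreated 2, while *Psme1* and *Psmf1* were lower with and without it. None of these differences passed the test across all genes.

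The test was edgeR's quasi-likelihood test with Benjamini-Hochberg adjustment, and 45 of the 48 genes had enough counts to be tested, with 36 to 4333 counts in a library. At an adjusted p under 0.05 it called 0 of the 45 proteasome genes higher and 0 lower, as it called 0% of the 12517 genes tested in either direction. The smallest adjusted p among the 45 was 0.592. At an unadjusted p under 0.05, 2 of the 45 were higher, against 3.32% of all genes tested, and 0 were lower, against 4.85%. The log2 fold change was above 0 in 24 of the 45, against 49.9% of all genes. The 3 treated libraries lay above the 3 untreated ones in 5 of the 45, against 10.6% of all genes, and below them in 2, against 10.2%. All these shares are near or below the background. DESeq2 called 0 of the 45 as well, where it called 0.156% of all genes higher and 0.338% lower. At an unadjusted p under 0.05 it had 3 of the 45 higher, against 4.12% of all genes, and 1 lower, against 6.16%. With limma-voom 0 of the 45 passed, and at an unadjusted p 3 were higher, against 3.62% of all genes, and 0 lower, against 3.94%.

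Without untreated 2 edgeR again called 0 of the 45, and 0% of 12836 genes, and the smallest adjusted p among the 45 was 0.227. The log2 fold change was then above 0 in 40 of the 45, against 50.1% of all genes, with a median of 0.27, where that over all genes was 0. At an unadjusted p under 0.05, 15 of the 45 were higher, against 9.55% of all genes, and 0 lower, against 8.85%. *Psme2b* was tested here though not over all 6 libraries. It passed the count filter only through untreated 1 and 3, where it was high. Its log2 fold change was -1.32 ± 0.55, with a p of 0.0435 and an adjusted p of 0.262 in edgeR's test. The filter favours this direction, and untreated 2, left out here, had 4 counts, so these values are no support for a difference. The treated libraries all lay above untreated 1 and 3 in 25 of the 45, against 19.7% of all genes, and below both in 2, against 19.9%. DESeq2 on these 5 libraries called 0 of the 45, where it called 1.01% of all genes higher and 1.39% lower, and its smallest adjusted p among them was 0.0536. At an unadjusted p it had 11 of the 45 higher, against 8.76% of all genes, and 0 lower, against 7.25%. Taken singly, treated 1, 2 and 3 lay above both untreated 1 and 3 in 40, 27 and 37 of the 45, against 41.4%, 35% and 42.3% of all genes. The genes share libraries, so a shift of 1 library moves many of them together, and these counts have no test.

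**Figure D1:**
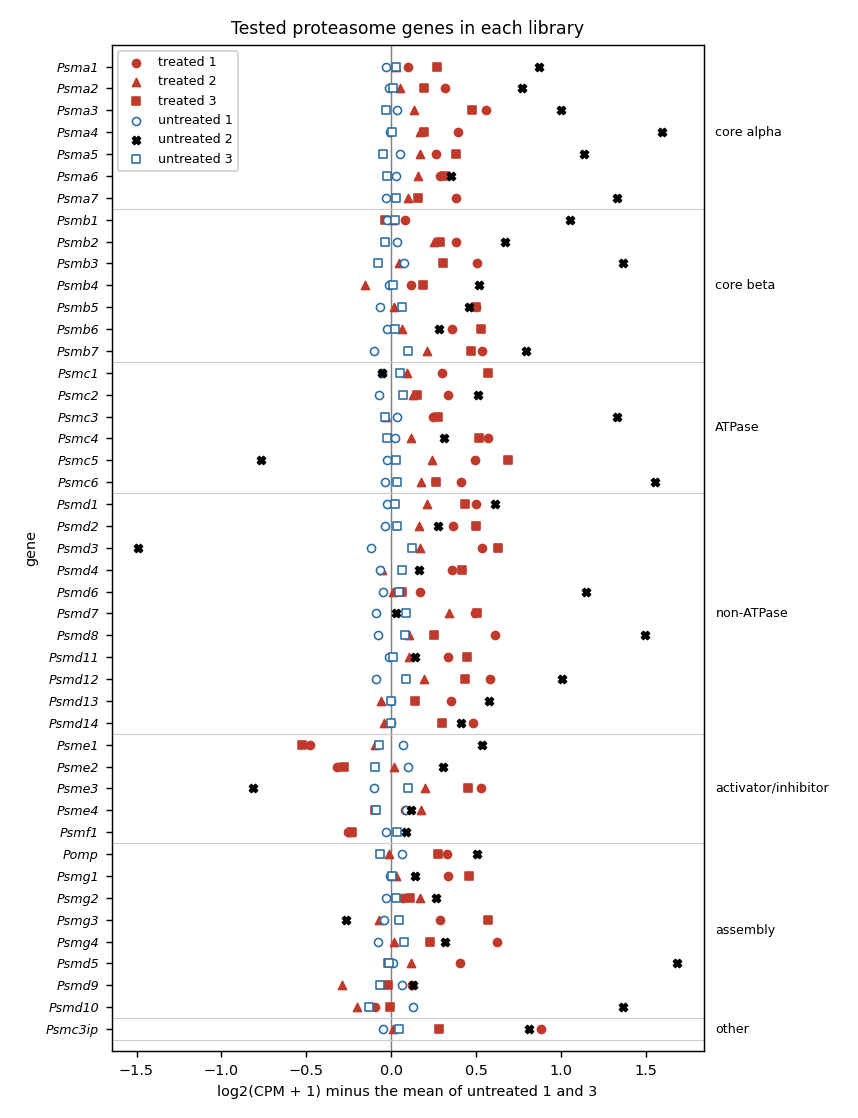
Level of the 45 tested proteasome genes in each library, as log2(CPM + 1) minus the mean of untreated 1 and 3, by class. Untreated 2 (black crosses) lies to the right for most core and regulatory genes and to the left for Psmc5, Psmd3 and Psme3, while the treated libraries lie mostly right of 0, treated 2 nearest to it.

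The plot of the 45 genes by library shows how they varied. Summed over the 31 core and regulatory subunits, the level was 4294, 3533 and 4233 CPM in treated 1, 2 and 3, against 3218, 5524 and 3338 CPM in untreated 1, 2 and 3. Untreated 2 was thus the highest library, untreated 1 and 3 the lowest, and the groups overlapped. The median subunit lay 0.38, 0.11 and 0.32 log2 above the mean of untreated 1 and 3 in treated 1, 2 and 3, and 0.61 above it in untreated 2. The median over all genes tested lay at 0, 0 and 0.01 in the treated libraries and at -0.03 in untreated 2. Treated 2 was the lowest of the treated libraries in 38 of the 45 genes. Over all genes it was the lowest in 4556 of 12517. Its counts were also the closest of any pair to those of untreated 3, with a chi-square statistic of 5.64 per gene, where the other pairs had 10.1 or more.

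Untreated 2 was the highest of the 6 libraries in 28 of the 45 genes, against 37.3% of all genes tested, and the lowest in 5, against 39.6%. Over all genes, those with a GC-rich transcript tended to have lower values in untreated 2, and whether the library or the tumour was the source was not tested. Across the 12447 genes with a known GC content, Pearson's r between GC content and the log2 difference of untreated 2 from the mean of the others was -0.46. Across the 45 proteasome genes, all of which share the same libraries, it was -0.26. The 15 with the lowest GC content, 37% to 47.1%, lay 0.66 above the other libraries at the median, the middle 15 lay 0.23 above, and the 15 with the highest, 51.5% to 57.4%, lay 0.26 above. With a trend of GC content and length removed from each of the 6 libraries, the log2 fold change was above 0 in 28 of the 45, against 48.1% of all genes, with a median of 0.15, and in 21 of the 31 core and regulatory subunits. At an unadjusted p under 0.05, 5 of the 45 were then higher, against 5.92% of all genes, and 1, *Psme1*, was lower, against 6.72% of all genes. None of the 45 passed after adjustment.

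**Figure D2:**
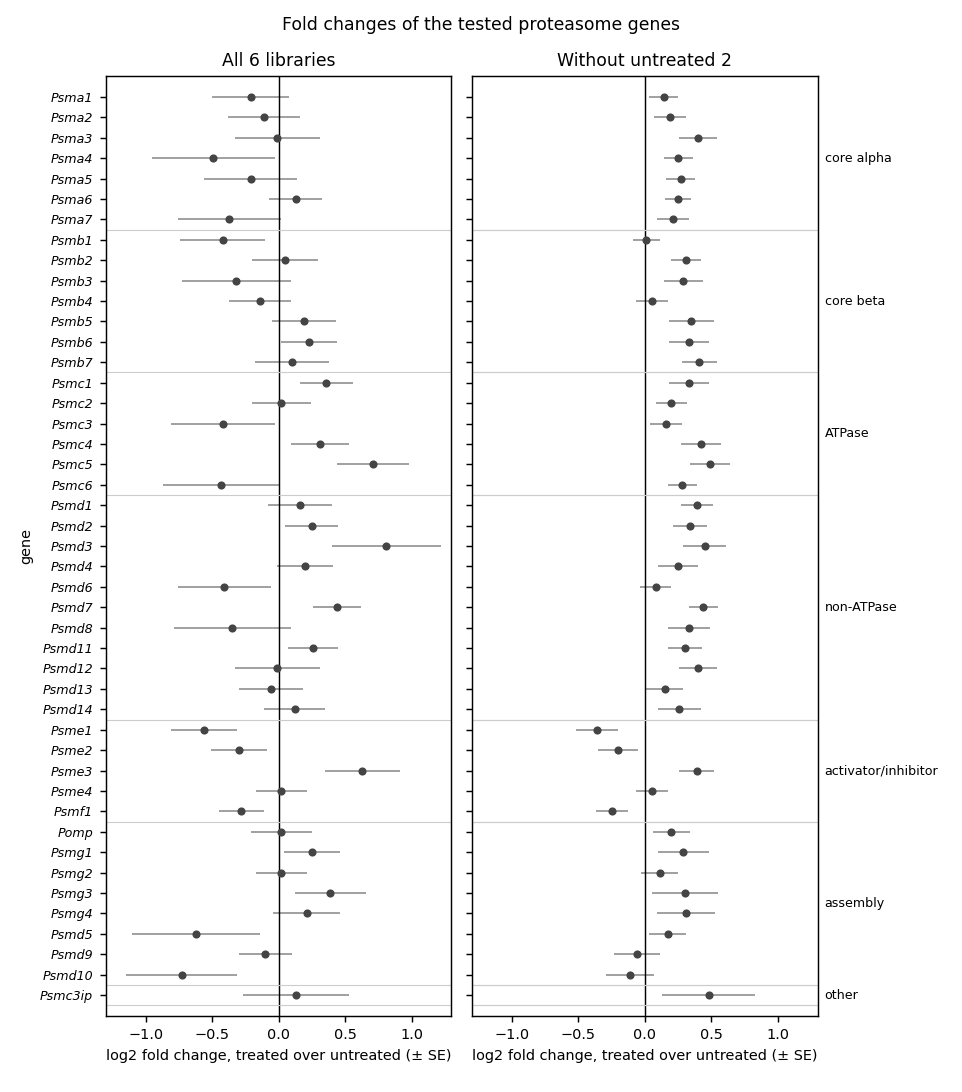
Log2 fold change of treated over untreated tumours with its standard error from edgeR for the 45 tested proteasome genes, with all 6 libraries on the left and without untreated 2 on the right. On the right all 31 core and regulatory genes lie above 0, between 0.01 and 0.49, against 50.1% of all genes above 0. Psme1, Psme2, Psmf1, Psmd9 and Psmd10 lie below 0 there.

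The alpha ring genes *Psma1* to *Psma7* form the outer rings and the gate. With all libraries 1 of 7 was higher in treated tumours, against 49.9% of all genes, and 6 were lower, with a median log2 fold change of -0.21. Without untreated 2 all 7 were higher, against 50.1% of all genes, with a median of 0.25. In all 7 the treated values lay above untreated 1 and 3, against 19.7% of all genes. The 7 genes share the same libraries. *Psma4* had 124, 106 and 108 CPM in treated 1, 2 and 3, against 93.8, 287 and 94.6 CPM in untreated 1, 2 and 3. Untreated 2 lay far above the rest, and the other libraries parted by group. Its log2 fold change was -0.49 ± 0.46 (SE), with an adjusted p of 0.711 in edgeR's test, and 0.25 ± 0.11 without untreated 2. *Psma7* had 119, 97.7 and 102 CPM in treated and 89.2, 231 and 93.1 CPM in untreated tumours, which is the same pattern. Its log2 fold change was -0.37 ± 0.39, and 0.21 ± 0.12 without untreated 2. The smallest difference for untreated 2 was in *Psma6*, with 109.6, 100.3 and 112 CPM in treated and 91.4, 115 and 88.1 CPM in untreated tumours. *Psma3* had the highest fold change of the ring without untreated 2, at 0.40 ± 0.14, and *Psma1* the lowest, at 0.14 ± 0.11.

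The beta ring holds the catalytic subunits *Psmb5*, *Psmb6* and *Psmb7*, which cut after hydrophobic, acidic and basic residues in that order, and the structural subunits *Psmb1* to *Psmb4*. With all libraries 4 of 7 were higher, against 49.9% of all genes, and 3 lower. Without untreated 2 all 7 were higher, against 50.1% of all genes, with a median log2 fold change of 0.31. *Psmb5*, the subunit that proteasome inhibitor drugs bind, had 88.1, 62.7 and 88.2 CPM in treated and 59.3, 85.7 and 64.9 CPM in untreated tumours. *Psmb6* had 86.4, 70.3 and 97.2 CPM in treated and 66.1, 81.9 and 68.2 CPM in untreated tumours. *Psmb7* had 121, 96.6 and 116 CPM in treated and 77.6, 145 and 89.4 CPM in untreated tumours. The groups overlapped in all 3 genes. In *Psmb6* and *Psmb7* only untreated 2 reached into or above the treated values, while in *Psmb5* treated 2 also lay below untreated 3. Over all 6 libraries their log2 fold changes were 0.19 ± 0.24, 0.23 ± 0.21 and 0.10 ± 0.28, and 0.35 ± 0.17, 0.33 ± 0.15 and 0.41 ± 0.13 without untreated 2. Exons of *Psmb7* overlap those of *Nek6* on the other strand, and the strand setting of the counting is not given in the sources used here, so its reads may hold some of that gene. The same holds for *Psma4* with *AY074887*, *Psme1* with *Emc9* and *Psmc3ip* with *Mlx*.

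The structural subunit *Psmb1* was the exception in the ring. It had 151, 144 and 139 CPM in treated and 140.4, 297 and 145 CPM in untreated tumours. Apart from untreated 2 its libraries were level, with a log2 fold change of -0.42 ± 0.32 over all 6 and 0.01 ± 0.10 without untreated 2. *Psmb4* was close to it, at 0.05 ± 0.12 without untreated 2. *Psmb2* and *Psmb3* lay at 0.31 ± 0.11 and 0.29 ± 0.15.

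Levels of different genes can be compared only per length. Counts per kilobase were set to the sum of the 14 core subunits of the same library, which assemble in equal numbers. Per kilobase of the longest GENCODE transcript, the mean over 6 libraries ran from 2.7% ± 0.117 (SD, n = 6) for *Psma2* to 11% ± 1.15 for *Psmb4*, a 4.09-fold span. The longest transcripts of *Psma2*, *Psma3* and *Psmb7* have 2911, 2846 and 2849 bases, for coding lengths of 702, 765 and 831. Per kilobase of coding length the span was 2.41-fold, from 4.36% ± 0.717 for *Psmb5* to 10.5% ± 1.16 for *Psmb1*. Which genes are the highest and lowest thus depends on the length used. On the coding scale *Psmb5*, *Psmb6* and *Psmb7* had 4.75% ± 0.494, 5.62% ± 0.557 and 6.35% ± 0.185 in treated tumours, against 3.97% ± 0.762, 4.62% ± 1.14 and 5.43% ± 0.532 in untreated ones (SD, n = 3 each). Per kilobase of transcript the treated means were 7.85%, 7.78% and 3.48%. Those of untreated 1 and 3 alone were 7.26%, 7.3% and 3.08%, and untreated 2 had 5.3%, 4.71% and 2.82%. For *Psmb5* treated 2, at 6.93%, lay level with untreated 1, at 6.94%. The plot of levels per coding length shows the untreated SD to be the wider for most genes.

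**Figure D3:**
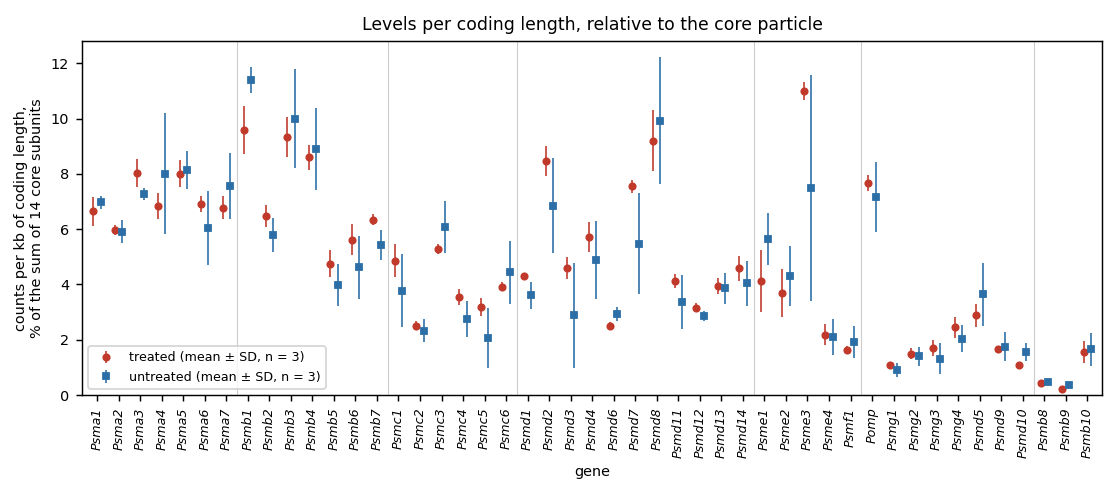
Counts per kilobase of coding length as a percentage of the sum over the 14 core subunits of the same library, mean ± SD over 3 treated (red) and 3 untreated (blue) libraries. Core subunits lie between about the level of Psmb5 (4.36% over all libraries) and that of Psmb1 (10.5%). The immunoproteasome genes Psmb8 and Psmb9 on the right lie lowest. Pomp and Psme3 lie as high as core subunits on this scale. Per kilobase of the longest transcript Pomp had 1.53%, below the lowest core subunit, Psma2, at 2.7%. Psme3 had 4.97% there, still within the range of the core subunits.

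The immunoproteasome genes *Psmb8*, *Psmb9* and *Psmb10*, which replace the catalytic subunits in immune cells and under interferon, are not among the 48 genes but are the natural counterpart of *Psmb5*, *Psmb6* and *Psmb7*. *Psmb10* had 24, 31.1 and 23.6 CPM in treated and 29.3, 27.2 and 29.2 CPM in untreated tumours. *Psmb8* had 6.97, 7.75 and 8.21 CPM in treated and 7.87, 14.1 and 6.26 CPM in untreated tumours. *Psmb9* had 2.15, 2.99 and 3.98 CPM in treated and 5.75, 5.36 and 3.8 CPM in untreated tumours. The groups overlapped in each. Per kilobase of transcript these genes made up 8.97%, 14.1% and 9.01% of the catalytic total in treated 1, 2 and 3, against 15%, 11.5% and 13.4% in untreated 1, 2 and 3. Treated tumours averaged 10.7% ± 2.93, against 13.3% ± 1.75 for untreated tumours (SD, n = 3 each), a difference of -2.61 percentage points with p = 0.3 in a 2-sided exact permutation test, which can give no p under 0.1 here.

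The 6 ATPases of the regulatory particle, *Psmc1* to *Psmc6*, form its motor. With all libraries 4 of 6 were higher in treated tumours, against 49.9% of all genes, with a median log2 fold change of 0.16. Without untreated 2 all 6 were higher, against 50.1% of all genes, with a median of 0.31. *Psmc5* (chromosome 11, 106256154 to 106263120, plus strand, mm10) had 82.4, 69 and 94.7 CPM in treated and 57.2, 33.9 and 59.4 CPM in untreated tumours. Each treated library lay above each untreated one, and untreated 2 was the lowest of all. The log2 fold change was 0.71 ± 0.27, with a p of 0.0353 and an adjusted p of 0.592 in edgeR's test, and 0.49 ± 0.15 without untreated 2, with an adjusted p of 0.227. *Psmc1* (chromosome 12, 100110154 to 100123405, plus strand) had 132, 114 and 159 CPM in treated and 103, 103 and 111 CPM in untreated tumours. Untreated 2 lay level with untreated 1 here, and the groups did not overlap, by the narrow gap of treated 2 over untreated 3. The log2 fold change over all 6 was 0.36 ± 0.20, and 0.33 ± 0.15 without untreated 2. Of the other ATPases *Psmc4* lay at 0.31 ± 0.22 with all libraries, *Psmc2* at 0.02 ± 0.22, *Psmc3* at -0.42 ± 0.39 and *Psmc6* at -0.43 ± 0.44, and without untreated 2 they lay at 0.42, 0.20, 0.16 and 0.28. *Psmc3* overlaps *Slc39a13* on the other strand.

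Of the 11 non-ATPase subunits 7 were higher in treated tumours with all libraries, against 49.9% of all genes, and 4 were lower. All 11 were higher without untreated 2, against 50.1% of all genes, with a median log2 fold change of 0.33. *Psmd7* (chromosome 8, 107580381 to 107588464, minus strand), the partner of the deubiquitinase *Psmd14*, had 158, 142 and 159 CPM in treated and 105, 114 and 119 CPM in untreated tumours. The groups lay apart, and untreated 2 lay between the other untreated libraries. Its log2 fold change was 0.44 ± 0.18, with a p of 0.044 and an adjusted p of 0.592 in edgeR's test. Without untreated 2 it was again 0.44, with an SE of 0.11, a p of 0.00448, the smallest of the 45 genes, and an adjusted p of 0.227. *Psmd7* and *Psmc5* were the 2 genes at an unadjusted p under 0.05 with all libraries.

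*Psmd3* (chromosome 11, 98682554 to 98695979, plus strand), a scaffold subunit of the lid, had 163, 126 and 174 CPM in treated and 103, 39.3 and 122 CPM in untreated tumours. The groups did not overlap, by the narrow gap of treated 2 over untreated 3, and untreated 2 lay far below all others. Its log2 fold change was 0.81 ± 0.41, the highest of the 45 genes, and 0.45 ± 0.16 without untreated 2. The large scaffold subunits *Psmd1* and *Psmd2* lay at 0.16 ± 0.24 and 0.25 ± 0.20 with all libraries and at 0.39 ± 0.12 and 0.34 ± 0.13 without untreated 2. The ubiquitin receptor *Psmd4* and the deubiquitinase *Psmd14* lay at 0.20 ± 0.21 and 0.12 ± 0.23, and at 0.25 ± 0.15 and 0.26 ± 0.16 without untreated 2. Of the other lid subunits *Psmd11* lay at 0.26 with all libraries, *Psmd6* at -0.41, *Psmd8* at -0.35, *Psmd12* at -0.01 and *Psmd13* at -0.06. Without untreated 2 they lay at 0.30, 0.08, 0.33, 0.40 and 0.15. *Psmd1* and *Psmd13* overlap *Htr2b* and *Sirt3* on the other strand.

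**Figure D4:**
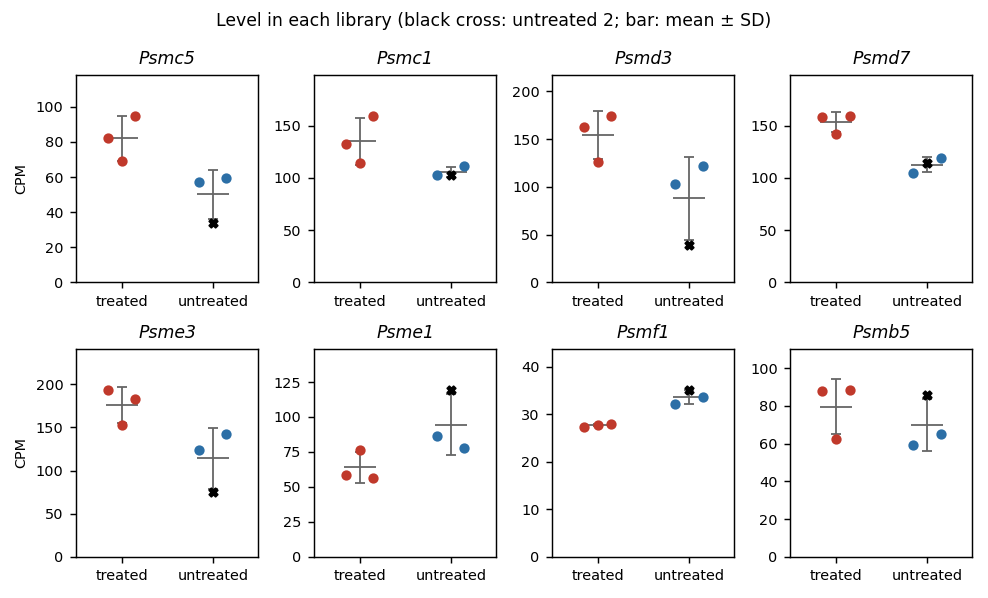
Level in CPM of 8 proteasome genes in each treated (red) and untreated (blue) library, with untreated 2 as a black cross and the mean ± SD of the 3 libraries of a group as bars. The groups lie apart in all but Psmb5, with treated tumours higher for Psmc5, Psmc1, Psmd3, Psmd7 and Psme3 and lower for Psme1 and Psmf1, by a narrow gap in Psmc1, Psmd3 and Psme1.

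The activators divided by type. *Psme3*, which codes for the nuclear activator PA28-gamma (chromosome 11, 101316213 to 101323537, plus strand), had 193, 153 and 183 CPM in treated and 124, 75.2 and 143 CPM in untreated tumours. *Psme1*, which codes for the alpha chain of the cytosolic, interferon-inducible activator PA28 (chromosome 14, 55578123 to 55581529, plus strand), had 58.5, 76.6 and 56.7 CPM in treated and 86.1, 119 and 77.9 CPM in untreated tumours. The groups lay apart in both genes, in opposite directions, with treated 2 close to the untreated libraries in *Psme1*. The log2 fold change was 0.63 ± 0.28 for *Psme3* and -0.56 ± 0.25 for *Psme1*, with an adjusted p of 0.592 for each in edgeR's test, and 0.39 ± 0.13 and -0.36 ± 0.16 without untreated 2. *Psme2*, the beta chain that pairs with *Psme1* and lies near it on chromosome 14, had 50.1, 63.5 and 51.6 CPM in treated and 67.2, 77.7 and 58.6 CPM in untreated tumours. Here treated 2 lay above untreated 3, and the log2 fold change was -0.30 ± 0.21, or -0.20 ± 0.15 without untreated 2.

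Macrophage markers had sums of 631, 1256 and 893 CPM in treated 1, 2 and 3, against 1133, 2447 and 1432 CPM in untreated 1, 2 and 3. Of these 8 markers 7 had a log2 fold change below 0, against 50.1% of all genes. The sums overlapped between the groups, as treated 2 exceeded untreated 1. For *Psme1* the groups stayed apart only narrowly, with treated 2 just under untreated 3. Across all libraries the sums and *Psme1* largely rose and fell together. Both peaked in untreated 2, treated 2 was the top treated library for both, and treated 1 and 3 were lowest for both. From replicate 1 to 3 the sums rose within each group, while *Psme1* fell. That fall was small among treated tumours, from 58.5 to 56.7 CPM, and went from 86.1 to 77.9 CPM among untreated ones. The part of these cells in the level of *Psme1* was not tested. *Psme4*, the large nuclear activator PA200, had 255, 272 and 226 CPM in treated and 256, 261 and 227 CPM in untreated tumours, a log2 fold change of 0.02 ± 0.19. *Psmf1*, first described as an inhibitor of the core (chromosome 2, 151715812 to 151744186, minus strand), had 27.4, 27.7 and 27.9 CPM in treated and 32.1, 35 and 33.6 CPM in untreated tumours. The groups lay apart, with an SD of 0.263 CPM in treated and 1.49 CPM in untreated tumours (n = 3 each). At its 153 to 274 counts in a library, counting error alone is larger than these SDs. The small spread is thus no measure of how alike the tumours were. Its log2 fold change was -0.28 ± 0.17, with an adjusted p of 0.623 in edgeR's test, and -0.25 ± 0.12 without untreated 2.

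Promoter sequence is shown for genes whose groups lay apart, to set the motifs known for proteasome genes beside their values. RefSeq windows on GRCm38.p6 (mm10), from 250 bases before to 50 after the start of transcription, were at hand for 40 of the 48 genes, in 43 windows. Printed are the bases that lie before the first base of the gene in both RefSeq and GENCODE M21, for *Psmc1* (chr12:100109952-100110153), *Psmc5* (chr11:106255935-106256153) and *Psme3* (chr11:101315963-101316212), all on the plus strand. All 3 were higher in treated tumours. The windows of *Psme1* and *Psmf1*, which were lower, lie within the gene in GENCODE and are not printed, and *Psmd3* and *Psmd7* complete the 7 genes whose groups lay apart. Capitals mark the ETS factor core CGGAAG, the CCAAT box or the GC box GGGCGG, on either strand.
Psmc1: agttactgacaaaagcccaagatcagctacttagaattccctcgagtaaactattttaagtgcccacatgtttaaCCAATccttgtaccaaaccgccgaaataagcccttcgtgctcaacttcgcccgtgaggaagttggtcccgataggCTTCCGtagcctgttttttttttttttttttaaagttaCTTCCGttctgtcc
Psmc5: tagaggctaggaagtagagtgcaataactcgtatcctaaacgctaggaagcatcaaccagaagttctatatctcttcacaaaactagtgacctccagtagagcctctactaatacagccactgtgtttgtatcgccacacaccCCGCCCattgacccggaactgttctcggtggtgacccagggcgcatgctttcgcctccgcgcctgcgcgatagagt
Psme3: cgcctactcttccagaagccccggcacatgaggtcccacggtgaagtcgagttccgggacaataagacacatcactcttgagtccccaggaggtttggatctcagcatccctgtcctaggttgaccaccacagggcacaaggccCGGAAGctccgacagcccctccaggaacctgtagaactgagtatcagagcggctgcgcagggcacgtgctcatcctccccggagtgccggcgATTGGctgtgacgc
*Psmc1* holds the ETS core at 100 to 95 and 62 to 57 bases before the RefSeq start, on the minus strand, and a CCAAT box further up. That start lies past the end of the printed stretch, which stops at the GENCODE start. *Psme3* holds 1 ETS core and 1 CCAAT box, and *Psmc5* 1 GC box. None of the 3 stretches holds the core of the antioxidant response element, TGACNNNGC, which the proteasome's own transcription factor *Nfe2l1* is known to bind, or the heat shock element, searched as GAA, TTC and GAA with any 2 bases between them.

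Of 12 motifs searched on both strands, 5 are given. CGGAAG lay in 25 of the 43 proteasome windows, 58.1%, against 16.9% of all 32851 windows and 30.3% of the 12077 windows of tested genes. TGACNNNGC lay in 6 of the 43, 14%, against 12.4% of all windows and 14.4% of those of tested genes. The 6 genes were *Psmb5*, *Psmb6*, *Psmc6*, *Psmd12*, *Psmd9* and *Psme4*. CCAAT lay in 32.6% of the proteasome windows against 37.4% of all, and GGGCGG in 55.8% against 35.7% of all and 62% of those of tested genes. The heat shock element lay in 0 of the 43, against 0.603% of all. The GC box and the ETS core can overlap, since both hold CGG. A match describes the letters of a window and was not tied to the values.

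Of the assembly factors, with all libraries 5 of 8 were higher in treated tumours, against 49.9% of all genes, and 3 lower. The median log2 fold change was 0.02. Without untreated 2, 6 were higher, against 50.1% of all genes, with a median of 0.19. *Pomp*, the chaperone that completes the core, had 74.7, 58.8 and 71.9 CPM in treated and 62, 84.6 and 56.6 CPM in untreated tumours. The groups overlapped, with a log2 fold change of 0.02 ± 0.23 and of 0.20 ± 0.14 without untreated 2. *Psmg3*, which pairs with *Psmg4* to help build the alpha ring, had 13.2, 10.1 and 16.3 CPM in treated and 10.3, 8.7 and 11 CPM in untreated tumours, a log2 fold change of 0.39 ± 0.27 that became 0.30 ± 0.25 without untreated 2. *Psmg1*, *Psmg2* and *Psmg4*, of the same chaperone family, lay at 0.25, 0.02 and 0.21 with all libraries and at 0.29, 0.11 and 0.31 without untreated 2.

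*Psmd5*, *Psmd9* and *Psmd10* are chaperones of the ATPase ring despite their names. *Psmd10*, also called gankyrin, had 15.9, 14.7 and 17 CPM in treated and 18.8, 45.5 and 15.5 CPM in untreated tumours. The groups overlapped with and without untreated 2, and its log2 fold change of -0.73 ± 0.42, the lowest of the 45 genes, was -0.11 ± 0.18 without untreated 2. *Psmd5* had 107, 87.6 and 79.6 CPM in treated and 81.4, 261 and 79.9 CPM in untreated tumours, and its log2 fold change was -0.62 ± 0.48, or 0.17 ± 0.14 without untreated 2. *Psmd9* lay at -0.10 ± 0.20, and at -0.06 ± 0.17 without untreated 2.

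Some symbols fit the rule without belonging to the proteasome of these tumours. *Psmc3ip* codes for a partner of the meiotic recombinase and is no subunit. It had 11.3, 5.71 and 7.09 CPM in treated and 5.45, 10.7 and 5.89 CPM in untreated tumours, a log2 fold change of 0.13 ± 0.40 that became 0.48 ± 0.35 without untreated 2. *Psma8*, an alpha subunit of the testis, had 0, 1 and 1 counts in treated and 2, 4 and 0 counts in untreated tumours. *Psmb11*, a beta subunit of the thymus, had 3, 1 and 2 counts in treated and 3, 0 and 3 counts in untreated tumours. A count of 0 allows up to 0.374 to 0.641 CPM at these depths, for counting error only. *Psme2b*, which has the same coding length of 717 bases as *Psme2* and whose reads may be split with it, also overlaps exons of *9930111J21Rik1* on the same strand. It had 7, 8 and 4 counts in treated and 18, 4 and 16 counts in untreated tumours.

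Genes that act with the proteasome were listed as 35 companions, of which 34 were tested. With all libraries 17 were higher, against 49.9% of all genes, and 17 lower in treated tumours, and 0 passed edgeR's test over all genes. Without untreated 2, 26 were higher, against 50.1% of all genes, and 8 lower, and 9 were higher at an unadjusted p under 0.05, against 9.55% of all genes. *Ubqln4*, which codes for a shuttle protein that brings ubiquitin-bearing proteins to the proteasome, had the smallest p of the companions. It had 179, 133 and 150.3 CPM in treated and 104, 93.5 and 118 CPM in untreated tumours, a log2 fold change of 0.55 ± 0.21 that became 0.46 ± 0.14 without untreated 2. The groups lay apart. All 3 treated libraries lay above the untreated ones in 7 of the 34, against 10.6% of all genes, and below them in 2, against 10.2%. The 2 were *Ngly1* and *Zfand5*, the last of which was named after its values were seen.

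The transcription factor *Nfe2l1*, which raises proteasome genes when the proteasome falls short, had 207, 225 and 204 CPM in treated and 216, 96.2 and 199 CPM in untreated tumours. Untreated 2 was low and the other 5 libraries level, with a log2 fold change of 0.32 ± 0.32 and of 0.03 ± 0.11 without untreated 2. *Ngly1*, the glycanase that helps to activate it, had 21.1, 21.5 and 15.4 CPM in treated and 28.9, 61.4 and 22.7 CPM in untreated tumours. The groups lay apart, with a log2 fold change of -0.96 ± 0.40, a p of 0.0462 and an adjusted p of 0.592 in edgeR's test, and -0.42 ± 0.20 without untreated 2. *Nfe2l2*, the related factor of the oxidative stress response, had 85.6, 108 and 87.7 CPM in treated and 103, 176 and 116 CPM in untreated tumours, a log2 fold change of -0.49 ± 0.26. Without untreated 2 it was -0.23 ± 0.14, and the groups overlapped with and without that library.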

How the data were processed

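The labels name Trizol for RNA extraction and a directional kit for the libraries. TopHat, with no version, and mm10 come from the submitters' processing notes, while neither the read counter nor its strand setting or annotation is stated there (not given in the sources used here). The deposited values are raw counts per gene symbol, 1 table per sample. Groups were taken from the titles.

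Counts were filtered with filterByExpr of edgeR 4.0.16 (R 4.3.3) at a smallest count of 10, which kept 12517 genes, scaled with TMM, and compared with the quasi-likelihood test, 2-sided, with Benjamini-Hochberg adjustment over all tested genes and a threshold of 0.05. CPM use the TMM library sizes. The SE is the size of the log2 fold change over the root of F. Differences between libraries use log2(CPM + 1). Lengths, GC content and coordinates are those of GENCODE M21, matched by symbol or RefSeq synonym. All pairs of libraries differed by more than sampling noise, where the chi-square statistic per gene would be about 1. The edgeR step was tested on simulated counts.

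The genes and lists were chosen with earlier results of these data known. Every gene fitting the rule could be named. Values in every library were given by rule for the 2 tested genes of each class with the smallest p, for *Psmb5*, *Psmb6*, *Psmb7* and *Pomp*, and for companions the 2 with the smallest p in each direction with *Nfe2l1* and the immunoproteasome genes. One companion that the rule names is not reported here. The others were chosen after their values were seen. Alternatives were DESeq2 1.42.0, limma-voom (limma 3.58.1) with and without sample weights, other scalings and filters, a correction for GC content and length (loess, span 0.3), leaving out each library, the replicate number as a block, and coding length in place of transcript length.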

Additional observations from a re-analysis of the deposited data

How the results depend on the processing

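No proteasome gene passed under any of the 17 alternatives. Over the 6 fits that each leave out 1 library, 0 to 4 genes of all passed, 18 to 40 of the 45 proteasome genes had a log2 fold change above 0, and their median was -0.08 to 0.27. The 40 and 0.27 came without untreated 2 and the 4 genes without untreated 3. DESeq2 called 57 genes of all, or 273 without untreated 2, where 40 of the 45 were above 0 with a median of 0.27. With sample weights limma-voom called 2 genes of all, and 39 of the 45 were above 0 with a median of 0.27. With coding length the span of core levels was 2.41-fold. The difference in immunoproteasome share was -4.29 to -1.75 percentage points without 1 library. The replicate numbers did not pair the libraries. Same-numbered libraries deviated together with r of -0.182, -0.11 and 0.108, and 0 of 6 correlated best with their own number. With the replicate block 0 genes passed, 26 of the 45 were above 0 and their median was 0.04. The cause of the changes in sign below was not tested.

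Log2 fold changes that changed sign lay as follows. With the replicate block and with limma-voom, *Psma3* lay at 0.07 and 0.06 and *Psmd12* at 0.07 and 0.07. With the GC and length correction they were 0.03 for *Psma1*, 0.26 for *Psma2*, 0.33 for *Psma3*, 0.19 for *Psmc6*, 0.09 for *Psmd12* and -0.08 for *Pomp*, and with the replicate block added 0.03, 0.26, 0.32, 0.20, 0.12 and -0.04. With the upper quartile *Psmc2*, *Psme4* and *Pomp* lay at -0.02 and *Psmg2* at -0.01. With DESeq2 size factors *Pomp* lay at -0.01 and *Psmc2* at 0.00, and with DESeq2 both lay at 0.00. With sample weights they were 0.13 for *Psma1*, 0.19 for *Psma2*, 0.40 for *Psma3*, 0.23 for *Psma4*, 0.26 for *Psma5*, 0.20 for *Psma7*, 0.28 for *Psmb3*, 0.06 for *Psmb4*, 0.16 for *Psmc3*, 0.27 for *Psmc6*, 0.07 for *Psmd6*, 0.31 for *Psmd8*, 0.40 for *Psmd12*, 0.15 for *Psmd13*, 0.14 for *Psmd5* and 0.14 for *Psmb8*. With DESeq2 and untreated 2 left out they were 0.14 for *Psma1*, 0.19 for *Psma2*, 0.40 for *Psma3*, 0.25 for *Psma4*, 0.27 for *Psma5*, 0.21 for *Psma7*, 0.01 for *Psmb1*, 0.29 for *Psmb3*, 0.05 for *Psmb4*, 0.16 for *Psmc3*, 0.28 for *Psmc6*, 0.07 for *Psmd6*, 0.33 for *Psmd8*, 0.40 for *Psmd12*, 0.15 for *Psmd13*, 0.17 for *Psmd5* and 0.12 for *Psmb8*.

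Without 1 library the range was -0.39 to 0.14 for *Psma1*, -0.26 to 0.19 for *Psma2*, -0.19 to 0.40 for *Psma3*, -0.77 to 0.25 for *Psma4*, -0.42 to 0.27 for *Psma5*, -0.62 to 0.21 for *Psma7*, -0.62 to 0.01 for *Psmb1*, -0.08 to 0.31 for *Psmb2*, -0.57 to 0.29 for *Psmb3*, -0.24 to 0.05 for *Psmb4* and -0.08 to 0.41 for *Psmb7*. It was -0.11 to 0.20 for *Psmc2*, -0.65 to 0.16 for *Psmc3*, -0.72 to 0.28 for *Psmc6*, -0.63 to 0.08 for *Psmd6*, -0.63 to 0.33 for *Psmd8*, -0.22 to 0.40 for *Psmd12*, -0.18 to 0.15 for *Psmd13* and -0.02 to 0.26 for *Psmd14*. It was -0.04 to 0.09 for *Psme4*, -0.10 to 0.20 for *Pomp*, -0.04 to 0.11 for *Psmg2*, -0.91 to 0.17 for *Psmd5*, -0.20 to 0.01 for *Psmd9*, -0.19 to 0.48 for *Psmc3ip* and -0.51 to 0.11 for *Psmb8*.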
